A study of Carex littledalei with 18 samples.

Results

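A set of 72 genes, of 214531 assembled genes in leaves of the sedge Kobresia littledalei (also named Carex littledalei), had high transcript levels at 12, 24 and 48 h at -5 °C and low levels at 0, 0.5 and 4 h. They were selected on these levels, so the contrast between late (12, 24 and 48 h) and early (0, 0.5 and 4 h) libraries is a description and carries no test. A gene was taken where the lowest of its 9 late values lay above the highest of its 8 early values. In addition, each late mean had to be at least 4 times the 0 h mean, with 0.1 added to both, and the mean of the 9 late values had to be at least 5. The values are the authors' scaled levels, corrected for library composition and, by inference, for gene length. Of 158 genes separated in this way, 102 had a late mean of at least 5, and 30 of those missed the 4-fold requirement. Just inside that requirement lay genes at 4.03, 4.02 and 4.01 times the 0 h mean, and just outside it genes at 3.86, 3.64 and 3.59 times. Just inside the level requirement lay late means of 5.15 and 5.01, and just outside it 4.99 and 4.92.

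Plants had been collected from the field in Tibet, left to recover in a nursery and kept in pots for 7 days in a greenhouse at 25 °C. Pots were then moved to a room at -5 °C, and leaves were taken after 0, 0.5, 4, 12, 24 and 48 h, with 3 samples at each of the 6 times and 18 in all. Each time was a separate pot, and no plants kept warm for the same hours were included, so cold cannot be told apart from the pot or from the time passed. The labels call the samples triplicates and do not say whether they were separate plants, so p-values measure only the spread between these samples, which may be technical.

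Plant responses to cold are known best from Arabidopsis, in which a drop in temperature brings up transcription factors of the CBF family within hours. These factors bind the promoters of cold-regulated genes, among whose products are dehydrins and other late embryogenesis abundant proteins that protect membranes and proteins during freezing and water loss. The deposited tables do not pair the identifiers with gene names, so no role is given to any of the 72 genes, and the labelled tissue could not be checked against leaf markers. Genes are called here by their rank in the ratio of the late to the early mean (0.1 added to each), and 2 are given by identifier.

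The column of 0 h replicate 1 and that of 4 h replicate 1 held identical values in all 214531 rows. In the selection that set of values was counted once, as an early library. It was left out of the means at 0 h and 4 h, which therefore rest on 2 libraries each, and out of the tests. Library totals were 18895399 to 32345479 estimated counts. The library of 24 h replicate 2 stood apart from the rest: 17982 genes had at least 90% of their reads in it, against 0 to 1474 in each of the other 15 libraries tested. None of the 72 genes was among those 17982. The selection asked for raised levels at all late times, which made this likely in advance, so nothing is read from it.

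The late levels of the 72 genes were many times their early levels, over a wide range of abundance. The ratio of late to early mean was 4.13 to 346, with a median of 25.7, and was at least 100 for 9 genes, 10 to under 100 for 49 and under 10 for 14. The mean of the late libraries was 5.01 to 2185, with a median of 25.3. It was at least 1000 for 5 genes, 100 to under 1000 for 12, 20 to under 100 for 22 and under 20 for 33. The median gene had means of 0.929, 0.443, 0.978, 20.3, 35.5 and 25.0 at 0, 0.5, 4, 12, 24 and 48 h. The step between 4 and 12 h was thus the one the selection required, and the median was higher at 24 h than at the other late times. In bulk leaf RNA, more cells with a transcript and more transcript per cell cannot be told apart.

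**Figure D1:**
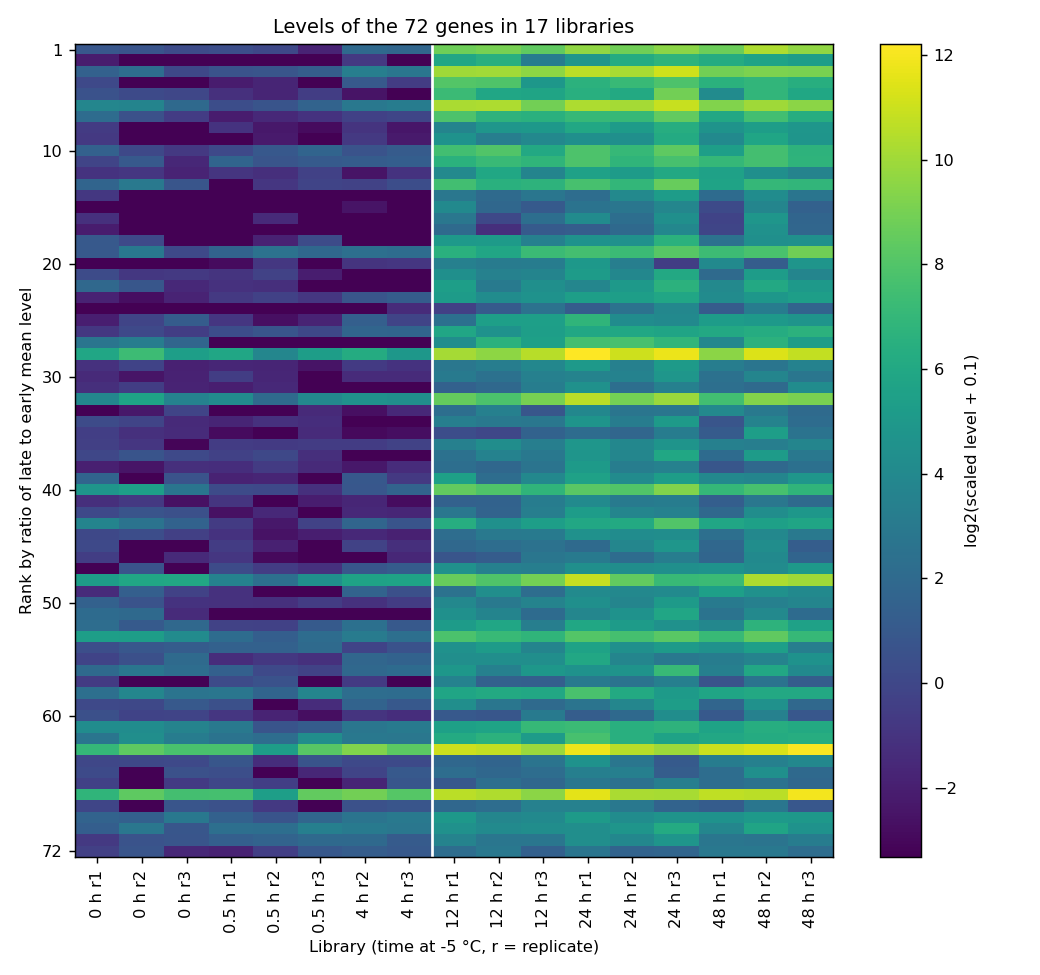
Scaled level of each of the 72 genes (rows, by rank in the late-to-early ratio) in 17 libraries (columns, by time at -5 °C), as log2 of the level plus 0.1. The white line parts the 8 early from the 9 late libraries, and the brightest rows are ranks 28, 63 and 67.

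The share of all counts that fell in the genes averaged 0.0445% ± 0.0084 at 0 h (SD over 2 libraries), 0.0245% ± 0.012 at 0.5 h (3 libraries) and 0.047% ± 0.014 at 4 h (2 libraries). It averaged 0.487% ± 0.047 at 12 h, then 0.882% ± 0.25 at 24 h, and 0.667% ± 0.3 at 48 h (SD, n = 3 each). Single libraries ranged over 0.381% to 1.06% late and 0.011% to 0.0572% early. In this summed share, the late libraries varied among themselves more at 24 and 48 h than at 12 h. Over single genes the times differed less, with a median replicate SD on the log2 scale of 0.72, 0.79 and 0.8 at 12, 24 and 48 h. At 12 h the 3 libraries lay at 0.52%, 0.434% and 0.507%. At 24 h they lay at 0.983%, 0.598% and 1.06%, and at 48 h at 0.381%, 0.974% and 0.644%. The lowest library was replicate 2 at 24 h and replicate 1 at 48 h. Gene by gene, 41 of the 72 were lowest at 24 h in replicate 2, and 45 were lowest at 48 h in replicate 1.

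**Figure D2:**
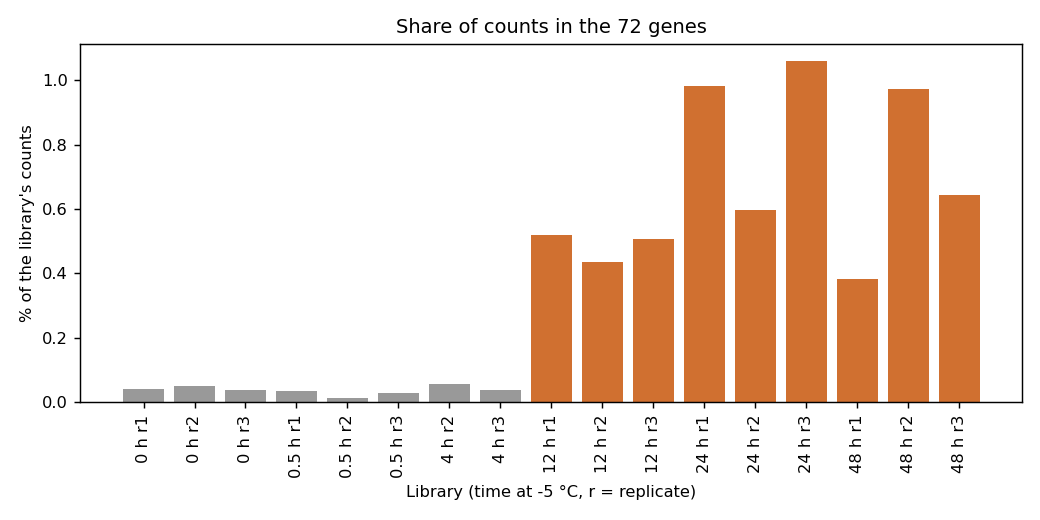
Percentage of each library's estimated counts that fell in the 72 genes, 1 bar per library (grey, early; orange, late; the axis starts at 0). The late bars run from 0.381% to 1.06% and the early bars from 0.011% to 0.0572%.

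Several of the genes were among the most abundant transcripts of the leaf late in the series. At 0, 0.5, 4, 12, 24 and 48 h, the 100 most abundant genes by scaled level held 0, 0, 0, 3, 6 and 6 of the 72, and the 1000 most abundant held 2, 2, 2, 13, 20 and 12. The highest place reached by any of them was 408, 508, 198, 69, 17 and 15 at the same times.

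The gene with the highest ratio was TRINITY_DN203178_c3_g3 (rank 1). It had scaled levels of 1.51 and 1.06 at 0 h, 1.24, 0.947 and 0.188 at 0.5 h, 3.81 and 3.42 at 4 h, 437, 518 and 344 at 12 h, 805, 467 and 718 at 24 h, and 425, 1233 and 796 at 48 h. The set of values deposited under both 0 h and 4 h gave 1.78. Its lowest late value was 90.4 times its highest early one, the widest gap among the 72 genes, and its 12, 24 and 48 h libraries overlapped. Both 4 h values were above all 0.5 h values, and edgeR's quasi-likelihood test gave a log2 fold change of 2.16 (SE 0.61) at 4 h against 0.5 h, with an adjusted p of 0.53. Between late times its log2 fold changes were 0.54 (SE 0.48, adjusted p = 1) at 24 h against 12 h and 0.21 (SE 0.48, adjusted p = 0.95) at 48 h against 24 h in edgeR. At 48 h against 12 h the log2 fold change was 0.75 (SE 0.48, adjusted p = 0.64 in edgeR).

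The gene with the highest late mean was TRINITY_DN200362_c2_g1 (rank 63), which was already well expressed before the late times. It had 332 and 218 at 0 h, 217, 39.1 and 289 at 0.5 h, 624 and 309 at 4 h, 2074, 1763 and 930 at 12 h, 3548, 1468 and 962 at 24 h, and 2009, 2546 and 4369 at 48 h. The set of values deposited under both 0 h and 4 h gave 129. Its late libraries overlapped between times, and its lowest late value, at 12 h, stood over a highest early value at 4 h by a much narrower margin than in rank 1. Its log2 fold changes in edgeR were 0.24 (SE 0.71, adjusted p = 1) at 24 h against 12 h, 0.31 (SE 0.71, adjusted p = 0.95) at 48 h against 24 h and 0.55 (SE 0.71, adjusted p = 0.88) at 48 h against 12 h. At 4 h against 0.5 h it was 1.52 (SE 0.78, adjusted p = 0.69 in edgeR).

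**Figure D3:**
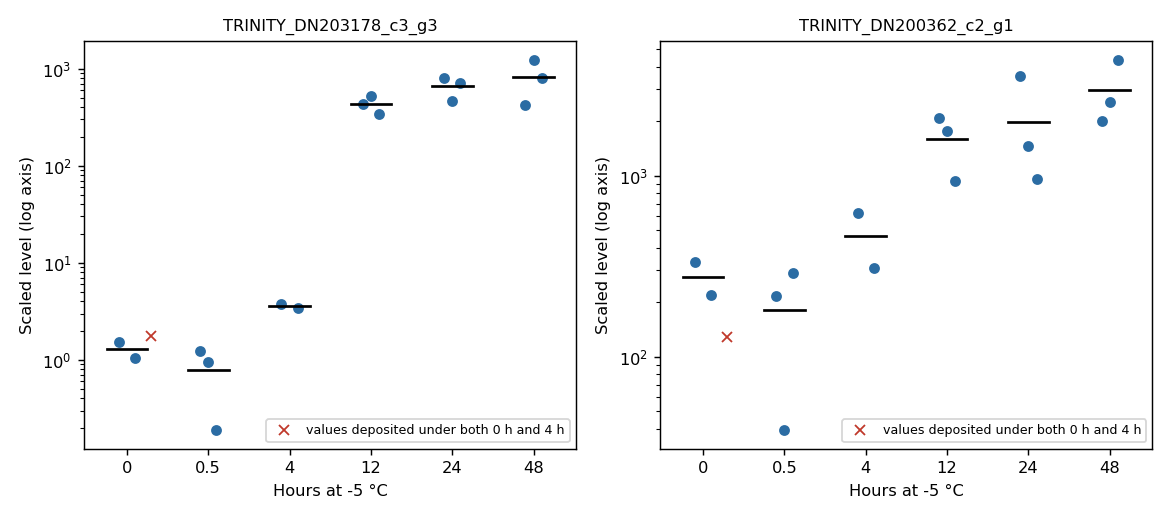
Scaled level (log axis) of the genes at ranks 1 and 63 in each library by hours at -5 °C (points, libraries; lines, means of the points; crosses, the values deposited under both 0 h and 4 h). Rank 1 sat between 0.188 and 3.81 early and between 344 and 1233 late, and rank 63 between 39.1 and 624 early and between 930 and 4369 late.

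Next to rank 63 by late mean came rank 28 at 2086, rank 67 at 1795, rank 6 at 1068 and rank 3 at 1039. These abundant genes followed different courses. Rank 28 had 1105, 763 and 1509 at 12 h, 4731, 2127 and 3398 at 24 h, and 738, 2669 and 1735 at 48 h, with early values of 14.2 to 158. All its 24 h libraries were above all its 12 h libraries, and its 48 h libraries overlapped both. Rank 67 followed rank 63 closely: the level of rank 63 was 0.82 to 1.63 times that of rank 67 in each of the 17 libraries, with a median of 1.14. Rank 3 had 1023, 1085 and 775 at 12 h, 1580, 1145 and 2153 at 24 h, and 476, 576 and 532 at 48 h, with early values of 0.921 to 10.03. Its 24 h libraries lay above all others and its 48 h libraries below all other late ones. Rank 6 had 1212, 1266 and 488 at 12 h, 1270, 1093 and 1912 at 24 h, and 626, 1010 and 737 at 48 h, with early values of 1.16 to 14.1.

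The remaining genes of ranks 1 to 10 were less abundant, with late means of 29.3 (rank 9) to 171 (rank 10). Rank 2 was at 0 in 6 of the 8 early libraries and no higher than 0.499 in the others, and it had 9.05 to 110 late. Rank 4 had 29.5 to 261 late and at most 1.90 early, and was the only gene of the 72 whose mean was highest at 12 h, at 179. Rank 5 had 471 in replicate 3 of 24 h and 18.1 to 152 in the other late libraries. Rank 7 had 63.2 to 359 late and at most 4.42 early. Rank 8 had 12.5 to 80.1 late and at most 0.557 early. Replicate 3 was the highest of the 24 h libraries in 9 of these 10 genes. Rank 72, the last of the set, had 2.63 to 7.49 late and 0.185 to 2.33 early.

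The gap between late and early libraries was wide for some genes and narrow for others. The lowest late value was at least 10 times the highest early value in 14 genes, at least 2 times in 46 and under 1.2 times in 7. In rank 51 these values were 4.24 and 4.22, and the early one was the set of values deposited under both 0 h and 4 h. That set was the highest early library in 22 of the 72 genes, and replicate 1 of 48 h was the lowest late library in 22. Of the 72 genes, 37 were above 0 in every early library, 35 were at 0 in some early library, 4 were at 0 in 7 of them and 0 were at 0 in all 8. With both columns of identical values left out of the selection, 77 genes met the rule.

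**Figure D4:**
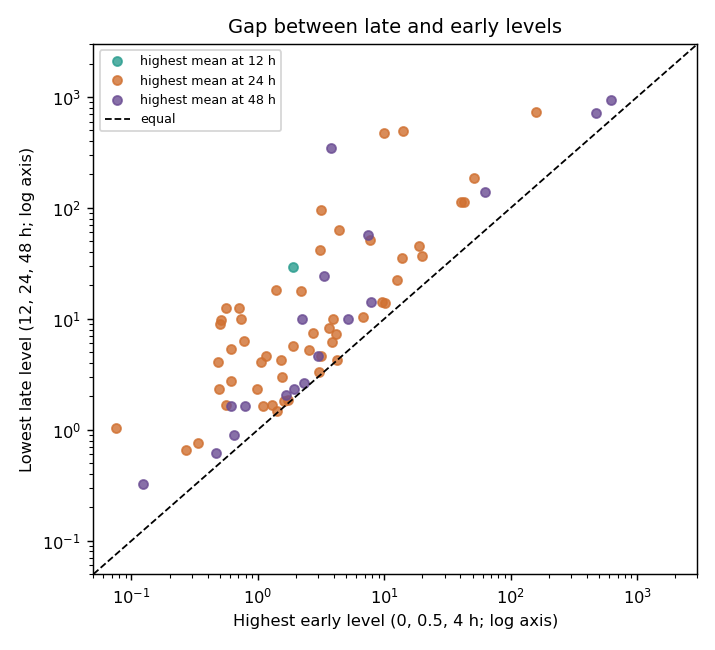
Lowest late level against highest early level of each of the 72 genes (log axes; 1 point per gene, coloured by the time of its highest mean). All points lie above the dashed line of equal values because the selection required it, at distances from 1.005-fold (rank 51) to 90.4-fold (rank 1).

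The selection set no late time against another, but it did not leave the late times wholly free. The requirement of a late mean of at least 5 pools them, and 7 genes (ranks 24, 38, 41, 57, 60, 66 and 68) met it only through their 24 h libraries and 3 (ranks 17, 35 and 72) only through their 48 h libraries. Such genes had to be high at that time. Medians and shares between late times are therefore also given for genes taken by a mean of at least 5 at the late time outside the comparison, a choice made after the data were seen. This does not drop all such genes. Rank 60 stays in at 24 h against 12 h, ranks 57 and 68 at 48 h against 24 h, and ranks 17 and 35 at 48 h against 12 h. Of the 72 genes, 53 had their highest mean at 24 h, 18 had it at 48 h and 1 had it at 12 h. The lowest late mean was that of 12 h for 45 genes, that of 48 h for 26 and that of 24 h for 1. With each late library left out in turn, 46 to 60 genes were highest at 24 h. Without 24 h replicate 2, the library that stood apart, 59 genes were highest at 24 h and 12 at 48 h, and without 24 h replicate 3 the numbers were 46 at 24 h, 20 at 48 h and 6 at 12 h. Omitting 48 h replicate 2 gave 60 at 24 h and 11 at 48 h. The mean at 24 h was above that at 12 h in 70 genes and at least 2 times it in 35. The 24 h mean was 0.892 to 4.09 times the 12 h mean, with a median of 1.9. The 48 h mean was 0.189 to 2.95 times the 24 h mean, with a median of 0.591, and 0.549 to 10.2 times the 12 h mean, with a median of 1.24. The means thus ran highest at 24 h in most of the genes, though replicates overlapped in most of them.

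In edgeR at 24 h against 12 h, the median log2 fold change of the 72 genes was 0.93, against 0.0 over all 68030 genes tested, and 70 of the 72 (97.2%) were positive, against 49.3% of all. None of the 72 was called at an adjusted p under 0.05. Across all genes edgeR called 0 as well (0.0%), with 2019 (2.97%) at an unadjusted p under 0.05. Of the 72, 11 were higher and 0 lower at an unadjusted p under 0.05 (15.3%). DESeq2 called 0 of the 72, against 0.0353% of all genes, and limma called 0, against 0.0% of all with either 1 or 0.1 added. edgeR without a filter on low counts called 2 of the 72, against 2.44% of all genes. In 13 of the 72 (18.1%) all 24 h libraries were above all 12 h libraries, against 2.26% of all genes tested. Of the 66 genes with a 48 h mean of at least 5, 64 were positive with a median of 0.93, against 52.4% and 0.02 over the 17429 tested genes with such a mean. All 24 h libraries were above all 12 h libraries in 11 of the 66, against 2.47%. Many of the 72 share an assembly component and all share the same 6 libraries, so they are not independent counts. With replicate 1, 2 or 3 of 24 h left out, 57, 70 and 61 genes were positive, and the medians were 0.76, 1.17 and 0.66.

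At 48 h against 24 h the median log2 fold change was -0.85 in edgeR, against -0.02 over all genes tested, and 58 of the 72 were negative. edgeR called 0 of the 72, against 0.0955% of all genes. At an unadjusted p under 0.05, 0 were higher and 11 lower (15.3%), against 11.44% of all genes in either direction. DESeq2 called 3 of the 72 lower, against 2.38% of all genes. limma called 1 lower with 1 added before the log, against 0.985% of all genes, and 0 with 0.1 added, against 0.878%. edgeR without a filter called 6 lower, against 3.46% of all genes. The lowest 48 h mean relative to 24 h was that of rank 38, with 1.66, 3.64 and 5.25 at 48 h, against 34.9, 9.66 and 11.3 at 24 h, a gene that met the level requirement through 24 h alone. All 48 h libraries were below all 24 h libraries in 14 of the 72 (19.4%), against 6.84% of all genes tested. The opposite held in 1 of the 72 (1.39%), against 9.7% of all. Of the 59 genes with a 12 h mean of at least 5, 50 were negative with a median of -0.97, against 54.4% and -0.06 over the 17088 tested genes with such a mean. All 48 h libraries were below all 24 h libraries in 12 of the 59, against 8.5%. Leaving out 24 h replicate 3 gave a median of -0.55, leaving out 24 h replicate 2 gave -1.08 and leaving out 48 h replicate 2 gave -1.19. In each of these fits edgeR called 0 of the 72, against 0.0581%, 0.0272% and 0.0167% of all genes in the same order.

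At 48 h against 12 h the 72 genes lay near the middle of all genes, with a median log2 fold change of 0.13 in edgeR, against -0.03 over all genes tested, and 42 of the 72 (58.3%) were positive, against 48.2% of all. edgeR called 0 of them, against 0.0882% of all genes. At an unadjusted p under 0.05, 3 were higher and 0 lower (4.2%), against 11.15% of all genes in either direction. DESeq2 called 1 higher, against 2.38% of all genes, and limma called 0, against 0.894% of all with 1 added and 0.751% with 0.1 added. edgeR without a filter called 1 higher, against 1.19% of all genes. All 48 h libraries were above all 12 h libraries in 3 genes (4.17%), against 8.67% of all genes tested, and below them in 1 (1.39%), against 5.73%. Rank 35 had the highest 48 h mean relative to 12 h, with 2.08, 42.4 and 5.82 at 48 h, against 1.18, 0.891 and 2.86 at 12 h, and met the level requirement through 48 h alone. Its largest value came from replicate 2 of 48 h, and the groups overlapped. Of the 71 genes with a 24 h mean of at least 5, 41 were positive with a median of 0.12, against 46.9% and -0.04 over the 17200 tested genes with such a mean. Without 48 h replicate 2 the median of the 72 genes was -0.18.

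Among the early times, the 0.5 h mean was below the 0 h mean in 46 genes, and the 4 h mean was above the 0.5 h mean in 47 and above the 0 h mean in 35. At 4 h against 0.5 h the median log2 fold change in edgeR was 0.71, against -0.11 over all genes tested, and 50 of the 72 (69.4%) were positive, against 43.9%. Of the 72, 10 had no counts in any library of 1 of these times and 4 had none at either. Of those 10, 5 had more than 3 counts at the other time and were set at a bound of 3 counts over the empty group. With those bounds, and without the other 5 and the 4 with no counts, the median was 0.79. edgeR called 0 of the 72, against 0.0% of all genes (0 calls, 5248 at an unadjusted p under 0.05). Of the 72, 14 were higher and 4 lower at an unadjusted p under 0.05 (25%), against 7.71% of all genes in either direction. DESeq2 called 4 higher, against 0.667% of all genes, and limma called 0, against 0.243% of all with 1 added and 0.207% with 0.1 added. edgeR without a filter called 7 higher and 2 lower, against 0.628% of all genes. All 4 h libraries were above all 0.5 h libraries in 24 genes (33.3%), against 13.3% of all genes tested, and below them in 5 (6.94%), against 12.5%. The median depended on single libraries: it was 0.37 without 0.5 h replicate 2, whose share of counts in the 72 genes was the lowest of all at 0.011%, and 0.4 without 4 h replicate 2.

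**Figure D5:**
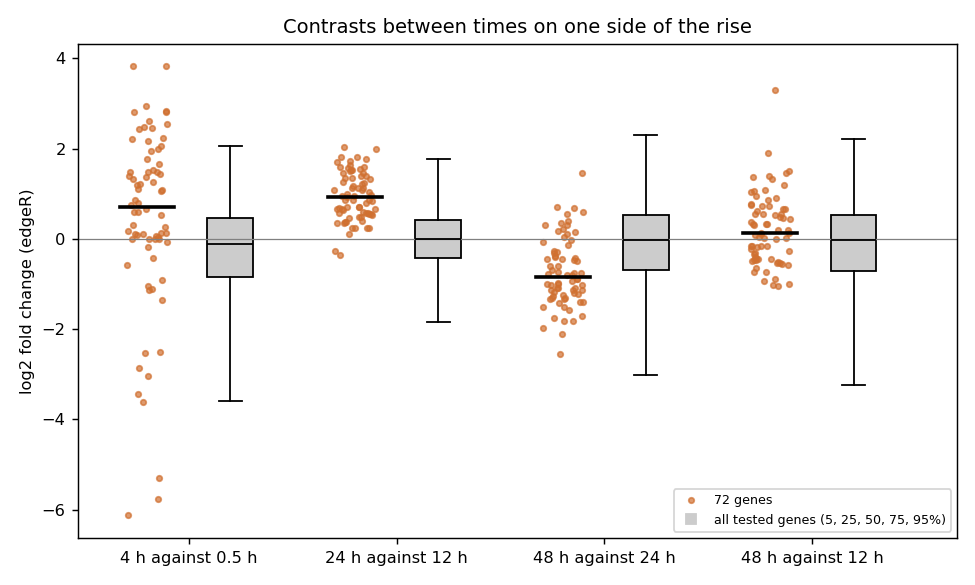
log2 fold change in edgeR between times that the selection did not set against each other, for the 72 genes (points; black lines, medians) and all 68030 genes tested (boxes, quartiles and median; whiskers, 5th and 95th percentiles). The medians of the 72 are 0.71, 0.93, -0.85 and 0.13 at 4 h against 0.5 h, 24 h against 12 h, 48 h against 24 h and 48 h against 12 h, and values of genes with no counts at 1 time depend on the prior count.

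Against 0 h, the contrast that the selection used, edgeR called 13 of the 72 higher at 12 h (0.022% of all genes tested), 20 at 24 h (0.0323%) and 16 at 48 h (0.0397%). These shares count genes called higher. In either direction the share at 48 h was 0.0779%. All 72 were positive at each of these times. Nothing is read from these counts, because the genes were chosen on the same values. They rest on 2 libraries at 0 h. Fits without either of these libraries have no replicate at 0 h. Such fits tested more genes and called fewer of the 72, and their counts are not given because the spread at 0 h is then unknown.

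The genes highest at 24 h and those highest at 48 h overlapped widely in their levels, as a description of groups made from the same values. Late means were 5.01 to 2086 in the first group and 5.18 to 2185 in the second. The 53 highest at 24 h had a median late mean of 28.6 and a median late-to-early ratio of 26.6. They held 8 of ranks 1 to 10, close to their share of the 72. The 18 highest at 48 h had a median late mean of 19 and a median ratio of 18.5, and included rank 1 and the abundant pair of ranks 63 and 67. The 53 fell in 35 assembly components and the 18 in 16.

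Within a time, the 72 genes did not vary as 1 block. At 24 h, 41 genes were highest in replicate 3 and 30 in replicate 1, and the level in replicate 3 was 0.0198 to 8.51 times that in replicate 1. It was at least 2 times higher in replicate 3 for 22 genes and at least 2 times higher in replicate 1 for 16. Rank 20 was the extreme, with 0.615 in replicate 3 and 31.1 in replicate 1. Of the 30 genes highest in replicate 1, 13 had their highest mean at 48 h, against 5 of the 41 highest in replicate 3. Over the 9 late libraries, Pearson's r between pairs of the 72 genes had a median of 0.35 and quartiles of 0.06 and 0.59, and 535 of the 2556 pairs (20.9%) were negative. These r values mix differences between times with those between replicates and were not set against pairs of other genes. They are descriptions over libraries that share depth and composition. At 12, 24 and 48 h the SD between replicates on the log2 scale had medians of 0.72, 0.79 and 0.8 over the 72 genes, against 0.74, 0.66 and 0.6 over all genes tested.

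Many of the genes shared assembly components. In the identifiers, a component is a set of assembled genes that share sequence, so that copies, alleles and fragments of 1 plant gene may stand in several rows. The 72 genes came from 49 components: 35 held 1 of them, and the other 14 held 37. The component with the most held ranks 2, 3, 4, 11, 16 and 18, which were 6 of its 9 rows. The others with at least 3 held ranks 1, 19 and 31, ranks 5, 21 and 51, ranks 6, 14, 22 and 47, and ranks 10, 23 and 34. Ranks 6, 14, 22 and 47 were all 4 rows of their component.

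Summed over its 6 members, the largest component had levels of 1480, 1604 and 942 at 12 h, 1982, 1503 and 2825 at 24 h, and 785, 983 and 791 at 48 h, with 1.15 to 14.6 in the early libraries fitted. Its 48 h libraries of 785 and 791 lay below all 12 h libraries, and that of 983 lay just above the lowest of them. Rank 3 made up 58.6% to 82.3% of the sum in the late libraries, so the sum followed it, while the other members kept their own courses. Rank 4 was 3.81% to 25.5% of rank 3 across the late libraries, and both ends of that range were 12 h libraries. Rank 11 had 96.5 to 231 late, with its lowest late mean at 12 h (119 ± 26.5, SD, n = 3), and rank 3 had its own at 48 h (528 ± 50.2, SD, n = 3).

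Rows of the same 49 components that were not selected numbered 144. Their late mean was above the early mean in 107, and 15 were separated between late and early libraries. Of the 42 with a late mean of at least 5, the late-to-early ratio was at least 4 in 22, 1.5 to under 4 in 8 and under 1.5 in 12. With counts summed over each component, 33 of the 49 components were separated between late and early libraries and 27 were also at least 4-fold above 0 h. The 144 rows are those that missed the rule, so their following the selected ones only in part was fixed by the selection. The sums include the selected rows, and these counts were not set against all components or rows. In 6 components all rows were selected.

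A pair of properties set limits on the single rows. The first has the scaled level, which the selection used, as its divisor and is not independent of that selection. The ratio of estimated count to scaled level is taken to follow the length of the assembled gene. It had a median of 0.461 of the library median in the 70 selected genes with enough counts (20 or more). The median was 0.839 for the 17196 tested genes with a late mean of at least 5 and 1.02 for all tested genes with a value. The ratio was below 1 in 56 of the 70. A count that was not whole in a late library, as given to reads shared between rows, was found in 34 of the 72 (47.2%), against 22.1% of tested genes with a late mean of at least 5 and 15% of all tested genes. How far shared reads moved the levels of single rows was not tested, and rows of 1 component are uncertain as separate genes.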

How the data were processed

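RNA from 18 leaf samples was sequenced as MGIEasy mRNA libraries by BGI-seq, per the labels' protocols. The submitters' processing notes name Trimmomatic 0.36 and FastQC. An aligner, a counting tool and assembly settings are not given in the sources that were used. The authors deposited estimated counts per assembled gene (expected counts, unscaled) and a signal table of the same genes scaled by TMM factors, per its name. That the signal is also scaled for length is inferred and not stated in the name. Whether that signal is TPM or FPKM is not stated, and its column sums have a geometric mean of 1000001. Columns were matched to samples by title, and 0 were left unmatched. No depth is known for the scaled values beyond the counts, and precision is set by the number of libraries and by counting error.

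Members were taken from the scaled table with 17 columns. Tests used the estimated counts rounded to whole numbers, in R 4.3.3 with edgeR 4.0.16: 16 libraries in 1 model with a mean per time, filterByExpr, TMM factors, the quasi-likelihood F test and Benjamini-Hochberg adjustment over 68030 genes. The SE is the log2 fold change divided by the square root of F. The common dispersion equalled a biological coefficient of variation of 69.3%, and 10 degrees of freedom were residual. Alternatives were DESeq2 1.42.0, limma 3.58.1 on log2(value + 1) and log2(value + 0.1), other size factors, no filter, other fits, a replicate block and the omission of each library in turn. The members, the tests and the lists were chosen with earlier results of these data known. The identifiers printed are the member of highest ratio and that of highest late mean; ranks 1 to 10, the 5 of highest late mean and the last are also described, and ranks 20, 35, 38 and 51 were chosen after their values were seen.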

Additional observations from a re-analysis of the deposited data

How the results depend on the processing

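The rule gave 72 genes, 46 with 8 times over 0 h and 39 with a late mean of at least 20; leaving out each library gave 62 to 91. With CPM in place of the scaled levels 57 genes met it, of which 53 were among the 72. Counts of members called against 0 h are descriptions, because the selection used that contrast, and nothing is read from them. No filter on low counts gave 2 members called at 24 h against 12 h, 6 at 48 h against 24 h, 1 at 48 h against 12 h, 9 at 4 h against 0.5 h (7 higher, 2 lower), and 57, 71 and 65 at 12, 24 and 48 h against 0 h. The shares of all genes called in the same order were 2.44%, 3.46%, 1.19%, 0.628%, 0.518%, 1.34% and 0.874%. Shares in this section count calls in either direction. In the main fit they were 0.022%, 0.0323% and 0.0779% at 12, 24 and 48 h against 0 h. DESeq2 called 3 at 48 h against 24 h, 1 at 48 h against 12 h, 4 at 4 h against 0.5 h, and 49, 67 and 62 against 0 h, with 2.38%, 2.38%, 0.667%, 0.535%, 0.553% and 1.58% of all genes. limma with 1 added called 1 at 48 h against 24 h (0.985% of all genes). Against 0 h at 12, 24 and 48 h it called 21, 38 and 36 with 1 added (0.0573%, 0.0955% and 0.767% of all genes). With 0.1 added it called 21, 43 and 45 (0.0485%, 0.107% and 0.745%). All 18 columns gave 20, 24 and 25 at 12, 24 and 48 h against 0 h (0.0395%, 0.0633% and 0.196% of all genes). Fits of only the times compared gave 0, 0 and 17 at 12, 24 and 48 h against 0 h (0.0%, 0.0% and 0.445%). Leaving out each 12, 24 or 48 h library in turn gave 10 to 15, 15 to 22 and 12 to 13 at these times against 0 h. The shares of all genes were 0.0149% to 0.0448%, 0.0238% to 0.0348% and 0.0297% to 0.0387%. Leaving out a 0 h library left 1 at that time and gave fewer calls. For 4 h against 0.5 h the members' median log2 fold change was 0.71, and 0.47 with library size alone, 0.22 with limma and 1 added, 1.19 with all 18 columns, 1.15 with only those times (39 members tested) and 0.37 to 0.93 without each library. At 24 h against 12 h, 48 h against 24 h and 48 h against 12 h, leaving out each library gave medians of 0.66 to 1.17, -1.19 to -0.55 and -0.18 to 0.37. The cause of these differences was not tested. Deviations from the mean of each time had correlations of -0.335 to 0.181 between same-numbered samples. With so few libraries at each time, these values cannot tell whether samples of 1 number share a source. With the replicate block the members called at 12, 24 and 48 h against 0 h were 10, 12 and 12. The shares of all genes were 0.0147%, 0.0176% and 0.0382%. The block called 0 members in the other 4 contrasts, with a median of 0.89 at 24 h against 12 h.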
